A study of Mus musculus with 16 samples.

Results

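Non-clonogenic luminal cells were compared with ductal progenitors, both sorted from the mammary gland of the same 4 female mice and measured on Affymetrix mouse arrays. The comparison takes the 4 arrays labelled non-clonogenic luminal minus the 4 labelled ductal progenitors, 8 of the 16 arrays of the series, with each difference formed within a mouse. The other 8 arrays hold alveolar progenitors and myoepithelial cells of the same mice. All 4 mice were 10 weeks and 2 days old, of the line DMI on a C57BL/6J 129 background, and untreated. Of these, 2 were Sox2-Cre +/+ ; Cpeb2 -/- (knockout) and 2 were Sox2-Cre +/+ ; Cpeb2 +/+ (wild type). Knockout and wild-type mice with the same number had the same parents. Both genotypes therefore carry the Cre, whose Sox2 promoter is used for deletion in the early embryo, and no animal without it was analysed here. Luminal cells were sorted as Epcam high and CD49f low, and within them the non-clonogenic cells are Sca1+CD49b- whereas the ductal progenitors are Sca1+CD49b+. The 2 populations therefore share the Sca1 gate and differ by the gate on CD49b.

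The luminal layer of the mammary duct holds hormone-sensing cells, which express the estrogen and progesterone receptors and send paracrine signals, and hormone receptor-low progenitors, which respond to those signals. CD49b, the integrin alpha 2 subunit, is used in the mouse gland to separate luminal cells that form colonies in culture from those that do not. Kit, Elf5 and Aldh1a3 are known as genes of the colony-forming, alveolar-directed luminal cells.

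Each array was one sorted sample of one mouse, with 15 ng of total RNA amplified before labelling. Values are log2 expression values per probe set, and a gene is represented by its brightest probe set. A gene was called at an adjusted p under 0.05 (limma, Benjamini-Hochberg over 17097 genes), and every difference below is the non-clonogenic luminal value minus the ductal progenitor value on the log2 scale, with the standard error of the fit. Arrays of the same genotype and population correlated at 0.979 to 0.990 across probe sets. The 2 arrays of one mouse correlated at 0.976 to 0.994. Over all probe sets the lower quartile was 5.08 to 5.18, and a difference whose dimmer side lies under it in all 4 arrays is a lower bound in size.

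The targeted gene was checked first. Cpeb2 read 8.33 and 8.66 in non-clonogenic luminal cells of wild-type mice 1 and 2, and 6.42 and 7.67 in those of knockout mice 1 and 2. In ductal progenitors it read 7.88 and 8.00 in wild type and 6.39 and 7.35 in knockout. Both knockout mice lay below both wild-type mice in each population, although the RNA was not at the floor. The sources used here do not place the probe set relative to the deleted sequence, so the check on the genotype is partial. Between the populations Cpeb2 differed by 0.36 (95% interval -0.27 to 0.997). Of the 4 CPEB family genes 0 were called by limma, and 0 had an unadjusted p under 0.05.

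The sort antigens were read next. Itga2, which encodes CD49b, read 6.60, 7.07, 7.002 and 6.72 in non-clonogenic luminal cells and 7.86, 7.52, 7.68 and 7.58 in ductal progenitors (wild-type mice 1 and 2, then knockout mice 1 and 2, the order kept for all 4 values below). The 2 sets of arrays did not overlap, and Itga2 was lower by -0.81 ± 0.16 (adjusted p = 0.0459), in the direction of the gate. Its call was lost in 13 of the 20 alternatives tried, among them leaving out wild-type mouse 1 (adjusted p = 0.264) and either knockout mouse (adjusted p = 0.501 and 0.730). Epcam differed by -0.08 (95% interval -0.23 to 0.08) and Itga6, the CD49f subunit, by -0.14 (-0.40 to 0.12). These intervals are for single genes and are not adjusted for the number tested. Ly6a, which encodes Sca1, was not analysed here.

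In the mean of the 4 mice, 157 genes were called, which is 0.918% of the genes tested. Of these 148 were lower in non-clonogenic luminal cells (0.866%) and 9 were higher (0.0526%). All 111 called genes that differed by at least 1 log2 unit were lower. Their sizes reached -5.10 with a median of -1.34 over the 148, whereas the 9 higher genes differed by 0.37 to 0.84. All 157 had the same sign in 4 of 4 mice, and for 119 the 4 arrays of one population did not overlap the 4 of the other. The calls rest on these same arrays, so this agreement is largely set by the selection and is not independent support. Its share over all genes is not given here. The median difference of all genes was 0.02. The count depended on single mice: it was 319 without wild-type mouse 2, 130 without wild-type mouse 1, 54 without knockout mouse 1 and 41 without knockout mouse 2, and lower genes outnumbered higher ones in each case.

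Csn3, which encodes kappa-casein, showed the largest difference. It read 6.16, 6.25, 6.06 and 6.65 in non-clonogenic luminal cells and 11.45, 11.64, 11.02 and 11.39 in ductal progenitors. Every ductal array stood more than 4 log2 units above every non-clonogenic luminal array. The difference was -5.10 ± 0.13 (34.2-fold lower, adjusted p = 3.66e-08). In these bulk samples, fewer cells that express a gene and less RNA per cell cannot be told apart. Csn3 has another probe set that lay under the lower quartile in all 8 arrays (-0.18), so the mean of both probe sets gave -2.64, still called.

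Aldh1a3, a retinaldehyde dehydrogenase that makes retinoic acid, read 6.49, 6.58, 6.77 and 6.18 in non-clonogenic luminal cells and 10.56, 9.79, 10.21 and 10.41 in ductal progenitors. The populations lay far apart in both genotypes, with a difference of -3.74 ± 0.19 (adjusted p = 3.56e-06). Kit, the receptor for stem cell factor, read 4.41, 4.48, 4.48 and 4.67 in non-clonogenic luminal cells, under the lower quartile in all 4 arrays. In ductal progenitors it read 9.07 and 9.004 in wild type and 6.74 and 7.82 in knockout. Its difference of -3.65 ± 0.16 (adjusted p = 1.56e-06) is therefore a lower bound in size. Csn3, Kit and Aldh1a3, the genes given to mark these cells, were thus higher in the ductal progenitors in each mouse.

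**Figure D1:**
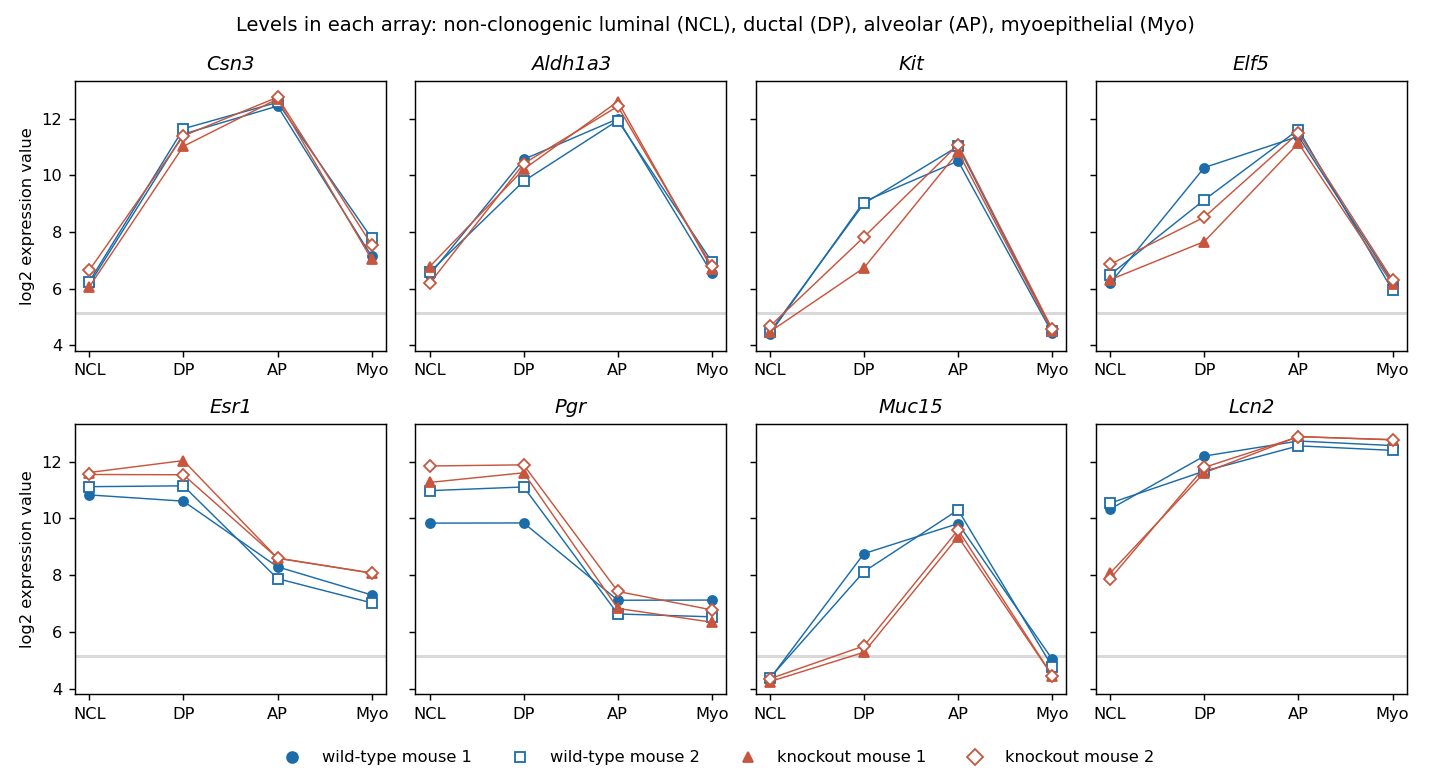
Log2 expression values of 8 genes in each of the 16 arrays, by sorted population, with 1 line per mouse, blue for wild type and red for knockout, and a grey band at the lower quartile of all probe sets. Csn3, Aldh1a3, Kit and Elf5 are higher in ductal progenitors than in non-clonogenic luminal cells in all 4 mice, the Esr1 and Pgr arrays of both populations overlap, and the Muc15 and Lcn2 lines split by genotype.

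Several other large falls were RNAs of secreted proteins. Trf, the iron carrier transferrin, read 7.11, 6.52, 5.90 and 6.84 in non-clonogenic luminal cells and 11.85, 11.12, 10.23 and 11.76 in ductal progenitors, a difference of -4.65 ± 0.16 (adjusted p = 2.7e-07). Ltf, the iron-binding defence protein lactoferrin, read 6.95, 6.88, 7.37 and 7.45 against 11.02, 10.44, 11.38 and 11.72 (-3.98 ± 0.19). Wfdc18, a small secreted protein with a whey acidic protein domain, read 8.37, 8.23, 7.16 and 7.18 against 12.78, 12.38, 11.03 and 11.34 (-4.15 ± 0.27). For these 3 genes the difference was of like size in both genotypes, although in both populations the knockout arrays of Wfdc18 read below the wild-type ones. Igfbp5, which binds insulin-like growth factors, read 5.06 to 5.25 in non-clonogenic luminal cells and 10.07, 9.11, 8.73 and 9.07 in ductal progenitors (-4.08 ± 0.20). Fcgbp, a mucin-like protein that binds IgG, differed by -2.70 ± 0.16.

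Enzymes, carriers, surface proteins and a Wnt ligand made up the rest of the 15 largest falls. Cyp1b1, a cytochrome P450 that oxidises estrogens, read 5.20, 4.99, 5.12 and 4.86 in non-clonogenic luminal cells and 10.84, 10.98, 8.02 and 8.81 in ductal progenitors. The difference was -4.62 ± 0.21, and the ductal arrays of both knockout mice lay more than 2 log2 units below those of wild type. Fabp5, a fatty acid binding protein, differed by -3.51 ± 0.24, Cldn1, a claudin of tight junctions, by -3.39 ± 0.14 and Rhoj, a small GTPase, by -3.32 ± 0.18. Dclk1, a doublecortin-like kinase, differed by -3.50 ± 0.19, and its 8 probe sets ranged from -0.21 to that value, with -1.51 for their mean. Btn1a1, butyrophilin of the milk fat globule membrane, differed by -2.70 ± 0.26, and its mean over probe sets was not called (-1.16, adjusted p = 0.0866). The mean over probe sets gave -2.61 for Cyp1b1. Wnt5b, a Wnt ligand, differed by -2.63 ± 0.30, was under the lower quartile in non-clonogenic luminal cells, and was not called without knockout mouse 1 or 2 (adjusted p up to 0.129).

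**Figure D2:**
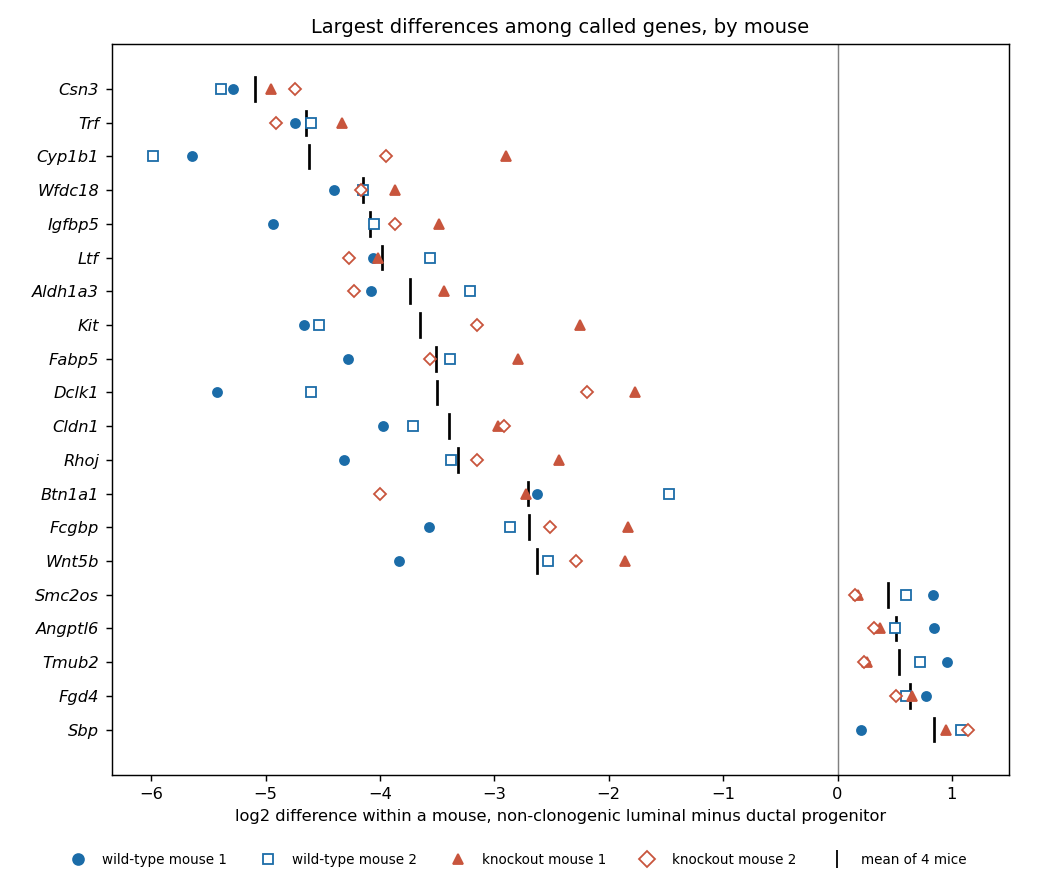
Log2 difference within each mouse, non-clonogenic luminal minus ductal progenitor, for the 15 largest falls and the 5 rises among called genes with arrays that do not overlap; symbols are mice and the black bar is the mean of the 4. All 4 symbols of each fall lie left of 0, from Csn3 at -5.10 to Wnt5b at -2.63, and the rises lie between 0.44 and 0.84 on average.

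Promoter sequence was read for these genes because they differed together. RefSeq promoters (GRCm38.p6, 250 bases before to 50 after a start) matched 10 of the 15 largest falls, 104 of the 148 genes lower in non-clonogenic luminal cells and 13605 of all 17097 genes. Motifs were searched on both strands, and motifs may share bases. The ETS letters GGAAGT, the core bound by the family of Elf5 and Ehf, occurred in 5 of the 10 genes, in 26.0% of the 104 and in 29.2% of all genes. The AP-1 letters TGANTCA occurred in 11.5% of the 104 and 7.71% of all genes, and the TATA box TATAAA in 16.3% and 11.8%. CCAAT occurred in 29.8% against 42.3%, the GATA letters AGATAA in 8.65% against 9.44%, the FOX letters TGTTTAC in 3.85% against 3.38% and the STAT letters TTCNNNGAA in 7.69% against 8.76%. An estrogen response element (GGTCANNNTGACC) was in 0 of the 104 and in 0.037% of all genes. Of the 9 higher genes, 7 had a promoter, with an ETS match in 1 and an AP-1 match in 2. These shares are descriptions with no test, and a match is not a binding site.

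The upstream stretches of 4 of the largest falls show where the letters lie. These genes were picked for having a single promoter, on the plus strand, with an ETS, GATA or TATA match upstream. The choice therefore does not show how common a match is. All 4 stretches end at the base before the start and carry ETS, GATA, TATA and CCAAT matches in capitals. They are chr11:83708804-83709003 for Wfdc18 (ETS on the minus strand, then TATA), chr9:111019192-111019291 for Ltf (CCAAT on the minus strand, then GATA), chr12:75308163-75308312 for Rhoj (ETS) and chr7:28071086-28071235 for Fcgbp (ETS).
Wfdc18: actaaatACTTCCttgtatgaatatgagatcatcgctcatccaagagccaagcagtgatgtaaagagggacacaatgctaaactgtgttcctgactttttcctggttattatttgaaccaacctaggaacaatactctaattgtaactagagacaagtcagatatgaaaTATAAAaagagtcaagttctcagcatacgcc
Ltf: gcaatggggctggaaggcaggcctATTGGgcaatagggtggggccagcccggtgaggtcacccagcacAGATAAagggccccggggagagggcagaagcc
Rhoj: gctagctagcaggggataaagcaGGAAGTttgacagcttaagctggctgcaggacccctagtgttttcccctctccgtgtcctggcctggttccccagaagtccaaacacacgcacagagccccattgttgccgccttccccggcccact
Fcgbp: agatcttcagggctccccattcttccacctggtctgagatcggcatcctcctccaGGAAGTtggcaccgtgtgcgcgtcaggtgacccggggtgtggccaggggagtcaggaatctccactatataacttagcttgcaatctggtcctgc

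Of 19 measured luminal progenitor markers, 16 were called lower in non-clonogenic luminal cells and 0 higher, against 0.866% of all genes called lower. The list's median was -1.44, beside 0.02 for all genes, and all 19 means were below 0. The 16 include Itga2, whose direction the CD49b gate sets, so that gene adds nothing independent to the count. They also include Csn3, Kit and Aldh1a3, the genes given to mark these cells. The members of this list and of the other lists were chosen with earlier results of these data known. For every list, the count against all genes is therefore a description and not an independent test. A gene can stand on several lists. Summed over the list, the level was 11.35 to 12.08 in the 4 non-clonogenic luminal arrays and 13.71 to 14.31 in the 4 ductal arrays, beside 15.47 to 15.79 in alveolar progenitors and 14.13 to 14.29 in myoepithelial cells. Of the 16 called genes, 7 averaged at least as high in myoepithelial cells as in ductal progenitors: Lcn2, Itga2, Lmo4, Tfap2c, Sox10, Foxc1 and Hey1. Besides Csn3, Ltf, Aldh1a3, Kit and Lcn2, the called members were Tspan8, a tetraspanin (-2.53 ± 0.28), Cd14, the lipopolysaccharide co-receptor (-1.52 ± 0.18), Mfge8, a milk fat globule protein (-1.44 ± 0.18), Lmo4, a LIM-domain cofactor (-1.26 ± 0.12), the integrin gene Itga2 and 6 genes of transcription factors. Over its probe sets Tspan8 gave a mean of -1.01. Tspan8, Cd14 and Lmo4 were not called without knockout mouse 1 or 2 (adjusted p up to 0.136), and Mfge8 was not called without knockout mouse 1 (adjusted p = 0.0805). The number called ranged from 8 to 17 over the alternatives.

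Of the 7 transcription factor genes in the progenitor list, 6 were called lower and Bcl11a was not. Elf5, an ETS factor needed for alveolar development, read 6.19, 6.49, 6.32 and 6.86 in non-clonogenic luminal cells and 10.27, 9.13, 7.66 and 8.52 in ductal progenitors. The highest ductal array was that of wild-type mouse 1 and the lowest that of knockout mouse 1, with no overlap between populations (-2.43 ± 0.22, adjusted p = 0.00023). Sox10 differed by -1.77 ± 0.14, Foxc1 by -1.35 ± 0.18, Tfap2c by -1.31 ± 0.13, the ETS factor Ehf by -1.13 ± 0.21 and the Notch target Hey1 by -1.12 ± 0.19. The mean over probe sets gave -0.77 for Tfap2c, and its call was lost without knockout mouse 2 (adjusted p = 0.0784). In myoepithelial cells Tfap2c averaged 11.43, Sox10 10.72 and Hey1 10.42, beside 8.09, 8.32 and 8.54 in ductal progenitors. Foxc1 was not called without knockout mouse 1 or 2 (adjusted p = 0.0788 and 0.223), and Ehf and Hey1 lost their calls in 10 and 13 of 20 alternatives. In the list of 43 lineage transcription factors, 5 were called lower and 0 higher, against 0.866% of all genes called lower, and its median was -0.05. The 5 called members were Elf5, Sox10, Foxc1, Tfap2c and Ehf, the same genes already counted as progenitor markers. Among those not called, Gata3 differed by 0.25 (95% interval -0.18 to 0.68), Sox9 by -0.05 (-0.33 to 0.22), Runx1 by -0.01 (-0.50 to 0.47) and Cebpd by -1.17 (-1.76 to -0.58, adjusted p = 0.104).

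Of the progenitor markers, 3 were not called. Rspo1, a secreted amplifier of Wnt signals, read 4.30, 4.37, 4.51 and 4.42 in non-clonogenic luminal cells and 6.07, 5.21, 4.44 and 4.44 in ductal progenitors. Among these 8 arrays it was highest in the wild-type ductal ones, and the wild-type alveolar arrays read higher still at 7.69 and 7.60. It had a mean difference of -0.64 ± 0.13 (adjusted p = 0.0590) and a difference of -1.30 in wild type (adjusted p = 0.00842). In knockout mice the difference was 0.02. Itgb3 differed by -0.18 (95% interval -0.86 to 0.50) and Bcl11a by -0.25 (-0.45 to -0.05, adjusted p = 0.498).

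Of 14 measured hormone-sensing luminal markers 0 were called by limma and 0 had an unadjusted p under 0.05, and 0 were called in each of the 20 alternatives. Their median was 0.09. Esr1, the estrogen receptor alpha gene, read 10.83, 11.12, 11.62 and 11.55 in non-clonogenic luminal cells and 10.61, 11.15, 12.04 and 11.54 in ductal progenitors. These ranges overlapped, and the difference was -0.06 (95% interval -0.43 to 0.32). Pgr, the progesterone receptor, read 9.84, 10.98, 11.27 and 11.85 against 9.84, 11.11, 11.61 and 11.89, so mice differed more than populations (-0.13, interval -0.78 to 0.52). In alveolar progenitors the 2 genes averaged 8.34 and 7.001, and in myoepithelial cells 7.62 and 6.69.

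The pioneer factor gene Foxa1 read 11.15, 10.93, 10.60 and 10.61 in non-clonogenic luminal cells and 10.93, 10.51, 10.39 and 10.48 in ductal progenitors (0.24, interval -0.31 to 0.80). The surface protein gene Prom1 differed by 0.15 (-0.19 to 0.49), the transcriptional regulator gene Cited1 by 0.20 (-0.48 to 0.88) and Tbx3 by 0.17 (-0.10 to 0.45). Wnt4, a progesterone target, differed by 0.23 (-0.15 to 0.61), and Tph1, which makes serotonin, by -0.12 (-0.91 to 0.67). Ly6d differed by 0.08 and Fxyd2 by 0.12, and in both populations both genes read higher in knockout than in wild type. Ly6d read 9.88 to 10.45 in the 4 wild-type arrays and 11.94 to 12.36 in the 4 knockout arrays. Greb1, an estrogen target, had the widest interval (-1.33 to 0.67), with 5.14 and 4.86 in the 2 arrays of wild-type mouse 1 and 6.60 to 8.51 in those of the other mice. The intervals bound these differences but do not show that the populations are equal. They use a spread pooled over all 4 populations, so the alveolar and myoepithelial arrays help set their width. For Foxa1, higher in 4 of 4 mice, the standard error was 0.25 and the SD of the within-mouse differences 0.12. For Myb, also on the list, they were 0.23 and 0.54. A fit of only the 8 arrays of both populations was among the alternatives in which 0 were called. Prlr, Areg and Calca were not analysed here.

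**Figure D3:**
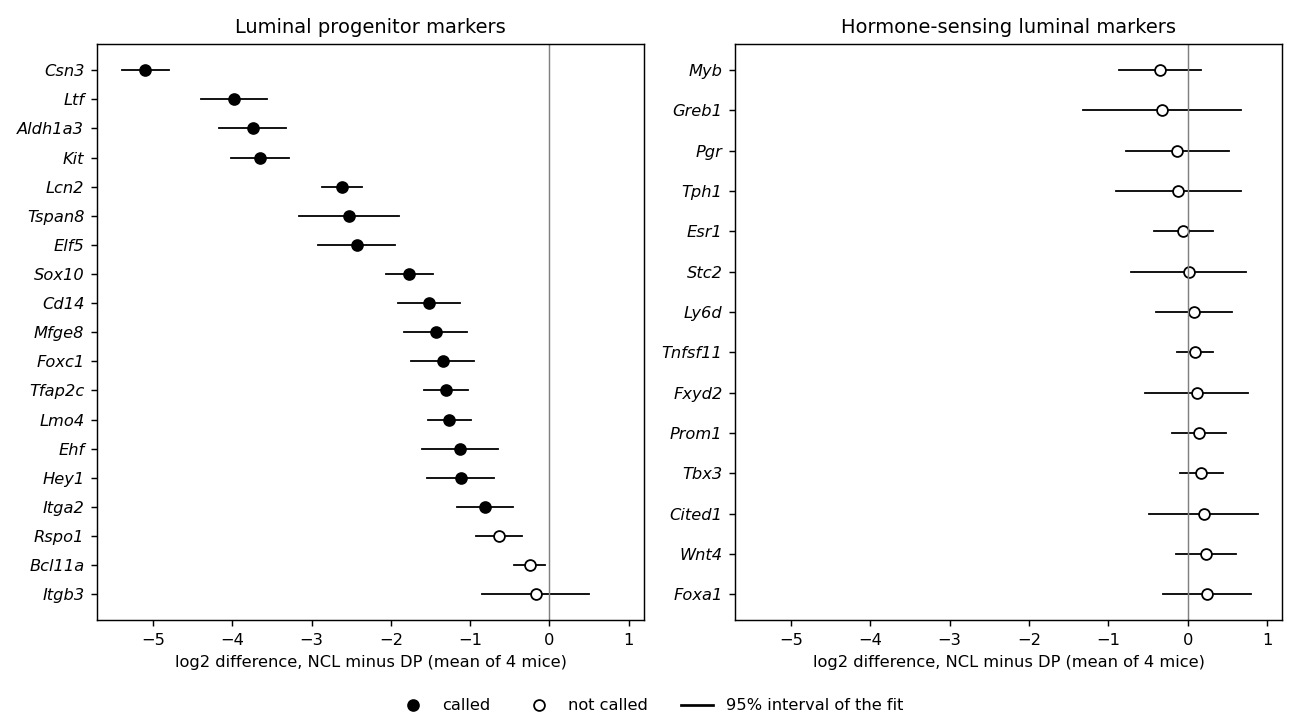
Log2 difference, non-clonogenic luminal minus ductal progenitor, with the 95% interval of the fit, for 19 luminal progenitor markers (left) and 14 hormone-sensing luminal markers (right); filled points passed the test. The filled points of the left panel run from -5.10 (Csn3) to -0.81 (Itga2), and all 14 points of the right panel are open, between -0.35 and 0.24.

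Among the 7 measured steroid, thyroid and growth hormone receptors 0 were called by limma, and 1 had an unadjusted p under 0.05. That was the glucocorticoid receptor gene Nr3c1, which read 6.79, 7.06, 6.88 and 6.74 in non-clonogenic luminal cells and 8.40, 7.48, 7.11 and 7.21 in ductal progenitors, arrays that did not overlap, but its difference of -0.68 ± 0.18 did not pass (adjusted p = 0.212). The growth hormone receptor gene Ghr differed by -0.20 (-0.67 to 0.27) and the thyroid hormone receptor gene Thra by 0.22 (-0.07 to 0.52).

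Signals between hormone-sensing cells and progenitors were read by pathway, beside the 0.866% of all genes that were called lower. In the progesterone and RANKL axis 1 of 14 measured genes was called, Elf5. Tnfsf11, the RANKL gene, read 5.48, 5.24, 5.15 and 5.35 against 5.32, 5.19, 5.14 and 5.20, near the floor in both populations (0.09, interval -0.14 to 0.32). Its receptor gene Tnfrsf11a differed by -0.44 (-0.76 to -0.12, adjusted p = 0.395), and the decoy receptor gene Tnfrsf11b by -0.10 (-0.29 to 0.09). Of 14 EGF family ligands and ERBB receptors 0 were called by limma, and 3 had an unadjusted p under 0.05. They were Egfr at -0.49 (-0.76 to -0.23, adjusted p = 0.142), Hbegf at -0.67 (-1.03 to -0.32, adjusted p = 0.132) and Erbb4 at -0.42 (adjusted p = 0.259), while Erbb3 differed by -0.02 (-0.31 to 0.26). In the Notch pathway 1 of 20 was called, Hey1, and the receptor genes Notch1 (-0.33, interval -0.77 to 0.10) and Notch3 (-0.02, -0.42 to 0.38) and the target Hes1 (0.03, -0.53 to 0.58) were not. In the Wnt pathway 2 of 32 were called, Wnt5b and Lgr6, an R-spondin receptor (-0.81 ± 0.15, adjusted p = 0.0330). Lgr6 was called in 8 of the 20 alternatives, and was lost with the mouse as a random block (adjusted p = 0.0929) and with no replicate block (adjusted p = 0.122). Of 18 FGF and IGF genes 1 was called, Igfbp5, and Fgfr2 differed by 0.06 (-0.47 to 0.60). Among 22 chemokines and inflammatory cytokines, Tgfb2 (-1.83 ± 0.21) and Lif (-1.03 ± 0.19) were called lower. Lif was called in 11 of 20 alternatives, with -0.64 for the mean over its probe sets, and Tgfb2 was not called without knockout mouse 2 (adjusted p = 0.0663).

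Secretory products and their handling were lower in part, in lists read beside the 0.866% of all genes called lower. Of the genes named below, Csn3, Mfge8, Ltf, Lcn2 and Cd14 were already counted as progenitor markers. The lists were chosen with earlier results of these data known, so their counts are descriptions. Of 15 milk and milk fat genes 4 were called lower, Csn3, Btn1a1, Mfge8 and Muc1, a membrane mucin (-1.16 ± 0.15). Muc1 was not called without knockout mouse 1 or 2 (adjusted p up to 0.204). The milk protein genes Csn2 and Wap were not among them: Csn2 differed by 0.03 (95% interval -0.33 to 0.39) and Wap by 0.05 (-0.19 to 0.28). In non-clonogenic luminal, ductal, alveolar and myoepithelial cells Csn2 averaged 7.61, 7.58, 7.61 and 7.36, and Wap 6.52, 6.48, 6.41 and 6.51. Such flat levels do not show whether the probe sets detected these RNAs. The direction of Csn2 turned with the probe set, as its other 2 gave -0.19 and -0.65 and the mean of all gave -0.27. Of 22 secreted defence genes 6 were called lower: Wfdc18, Ltf, Lcn2, Muc15, Cd14 and Chil1, a chitinase-like protein (-1.75 ± 0.13). The list's median was -0.09, and Wfdc2 differed by 0.08 (-0.36 to 0.53). Of 24 ion and water transporters 4 were called lower. They were Kcnn4, a calcium-activated potassium channel (-2.56 ± 0.21), Atp6v1b1, a proton pump subunit (-2.06 ± 0.17), Clic6 (-1.25 ± 0.10) and Car2, a carbonic anhydrase (-1.06 ± 0.17), which was called in 13 of 20 alternatives. The iodide transporter gene Slc5a5 differed by 0.48 (-0.43 to 1.38).

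Against 0.866% of all genes called lower, retinoid metabolism held 2 of 19, Aldh1a3 and Crabp2, which carries retinoic acid (-1.71 ± 0.19). Of 19 claudin and tight junction genes 2 were called, Cldn1 and Cldn23 (-0.71 ± 0.14), whereas Cldn3, Cldn4 and Cldn7 differed by -0.12, -0.08 and -0.20. Of 23 integrin and laminin genes 2 were called, Itga2 and Itgb6 (-0.60 ± 0.11). Aldh1a3 and Itga2 were already counted as progenitor markers. Cldn23 and Itgb6 were each called in 8 of 20 alternatives, and Itgb6 lost its call whenever any mouse or array was left out (adjusted p up to 0.749). Keratins held 0 limma calls among 12 (2 at an unadjusted p under 0.05), with Krt8 at 0.01 (-0.17 to 0.19), Krt18 at 0.004 (-0.23 to 0.24) and Krt19 at -0.05 (-0.58 to 0.49).

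**Figure D4:**
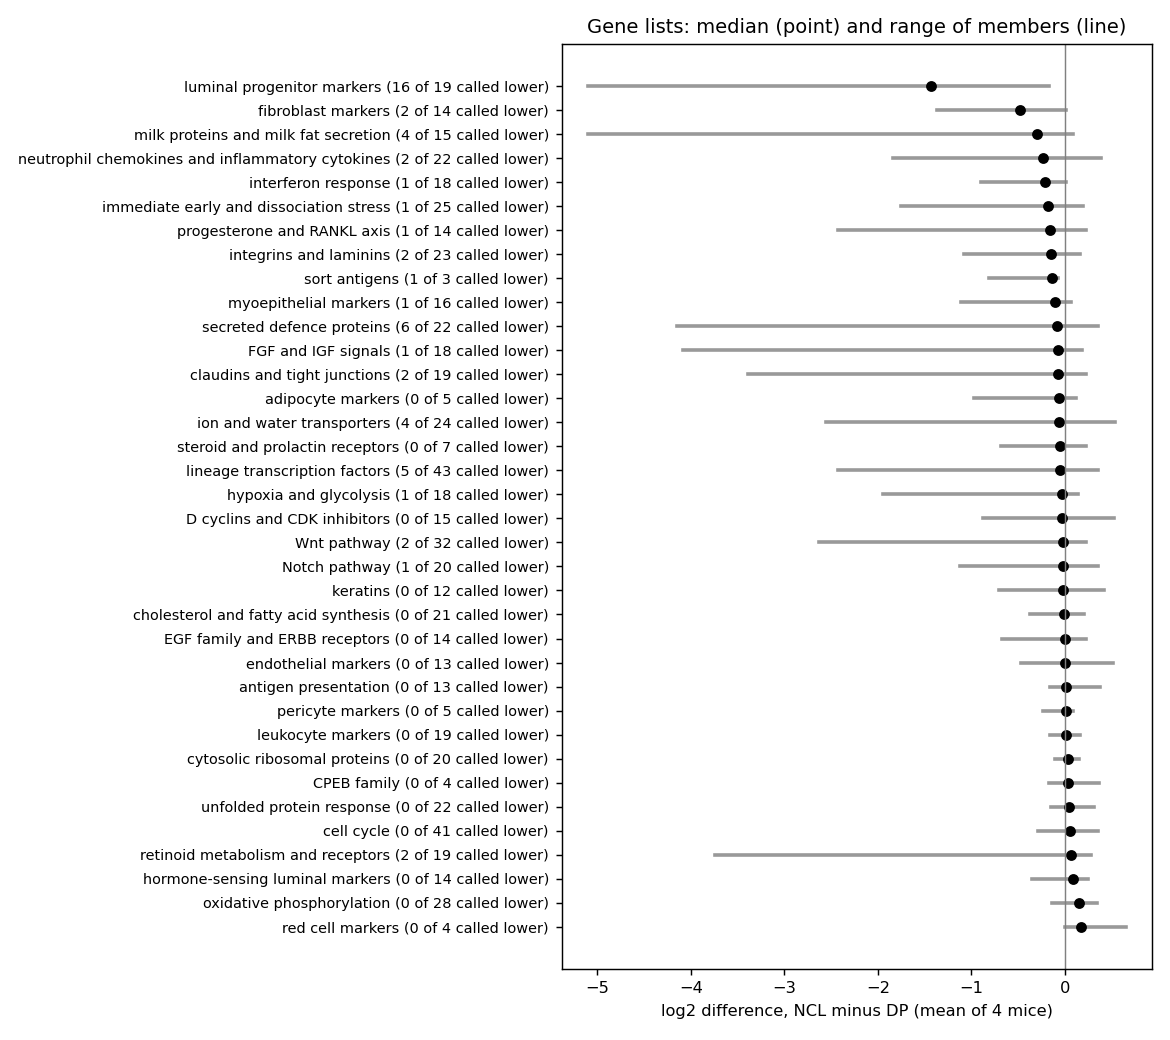
Median (point) and range (line) of the log2 difference, non-clonogenic luminal minus ductal progenitor, over the measured members of each of 36 gene lists, with the number of members called lower. The luminal progenitor list has the lowest median at -1.44 with 16 of 19 called lower, and the cell cycle list is at 0.05 with 0 of 41, a median that ran from -0.25 to 0.35 over the alternatives.

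General cell programmes held 0 or 1 call per list, where 0.866% of all genes were called lower and 0.0526% higher. Of 41 cell cycle genes 0 were called by limma and 0 had an unadjusted p under 0.05, with a median of 0.05 and members from -0.29 to 0.35. The direction of that median turned with single arrays: it was -0.25 without the non-clonogenic luminal array of wild-type mouse 1 and 0.35 without that of wild-type mouse 2, and at most 1 gene was called in any alternative. Likewise 0 were called, and 0 passed unadjusted, among 22 genes of the unfolded protein response (median 0.04), 20 cytosolic ribosomal proteins (0.03), 21 of cholesterol and fatty acid synthesis (-0.01) and 13 of antigen presentation (0.01). Among 28 genes of oxidative phosphorylation (median 0.15, and 0.03 to 0.21 over the alternatives) 0 were called by limma and 3 had an unadjusted p under 0.05. Among 15 D cyclins and CDK inhibitors (median -0.03) the counts were also 0 and 3. Of 25 immediate early and dissociation stress genes 1 was called, Ccn1, a matricellular protein (-1.75 ± 0.19, not called without knockout mouse 2), and Fos differed by -0.03 (-0.23 to 0.18). In the interferon response Irgm1 (-0.55 ± 0.10) was 1 of 18 called. In hypoxia and glycolysis Egln3, an oxygen-sensing hydroxylase, was 1 of 18 (-1.95 ± 0.38, adjusted p = 0.0475). The interferon list had a median of -0.21, with 17 of 18 means below 0 and 5 genes lower at an unadjusted p under 0.05. For the stress list these were -0.18, 21 of 25 and 5, and for hypoxia and glycolysis -0.03, 11 of 18 and 2. Among all 17097 genes 7084 means were below 0, and 672 genes were lower at an unadjusted p under 0.05. Irgm1 was called in 6 and Egln3 in 7 of 20 alternatives. Both calls were lost with no replicate block (adjusted p = 0.590 and 0.226), and that of Irgm1 whenever any mouse or array was left out.

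Markers of other cell types were read in the same arrays, again beside 0.866% of all genes called lower. Of 14 fibroblast markers 2 were called lower, Col3a1 (-1.33 ± 0.24) and Col1a1 (-0.95 ± 0.17), with a list median of -0.48. Col3a1 was called in 10 and Col1a1 in 9 of 20 alternatives, both were lost with no replicate block (adjusted p = 0.513 and 0.518), and the mean over probe sets gave -0.73 for Col3a1. Over the alternatives the list's median ran from -0.76 to -0.17 with 0 to 6 members called lower. The fibroblast list summed to 10.84 to 11.80 in non-clonogenic luminal cells and 11.21 to 12.71 in ductal progenitors, beside 9.71 to 10.19 in alveolar progenitors and 12.14 to 12.70 in myoepithelial cells. Col3a1 was highest in the ductal array of wild-type mouse 1, at 11.40, beside 9.72, 9.15 and 8.90 in the other ductal arrays, and Pdgfra read near the floor with means of 4.71 and 4.79. Of 16 myoepithelial markers 1 was called, Sparc, a matrix protein (-0.98 ± 0.16, called in 10 of 20 alternatives), and the sums of 10.35 to 10.57 and 10.57 to 11.37 lay far under the 15.67 to 15.83 of myoepithelial cells. Leukocyte, endothelial, pericyte, adipocyte and red cell lists held 0 limma calls, and 0, 2, 0, 1 and 1 genes of them had an unadjusted p under 0.05, with Ptprc at 3.91 and 3.87 and Adipoq at 4.22 and 4.28 in the 2 populations. What part the collagen RNA has in the other differences was not tested.

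The 9 genes called higher were small changes. The 5 described here were picked because their arrays did not overlap, so that trait is not a result about them. Its share over all genes is not given here. Sbp, a spermine binding protein, read 5.62, 6.65, 6.50 and 6.70 in non-clonogenic luminal cells and 5.41, 5.57, 5.55 and 5.56 in ductal progenitors (0.84 ± 0.15, adjusted p = 0.0316). Wild-type mouse 1 showed the smallest difference. Fgd4, an exchange factor for the GTPase Cdc42, read 7.51, 7.42, 7.01 and 6.90 against 6.74, 6.82, 6.36 and 6.39 (0.63 ± 0.08, adjusted p = 0.00249), but the mean over its probe sets was not called (0.23, adjusted p = 0.272). Tmub2 differed by 0.54 ± 0.10, the secreted angiopoietin-like protein gene Angptl6 by 0.51 ± 0.09, and Smc2os by 0.44 ± 0.05. The ductal values of Smc2os lay under the lower quartile. Its non-clonogenic luminal values of 5.37, 5.04, 4.70 and 4.54 rose above it only in wild-type mouse 1. Smc2os thus read near the floor in both populations, and its difference was 0.72 in wild type and 0.17 in knockout. Leaving out knockout mouse 1 or knockout mouse 2 ended all 5 of these calls, and Sbp, Angptl6 and Tmub2 were called in 11, 11 and 7 of 20 alternatives.

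Each genotype was then read alone, with 2 mice each. In wild type 140 genes were called (0.819%), 126 lower in non-clonogenic luminal cells (0.737%) and 14 higher (0.0819%). In knockout 46 genes were called (0.269%), all lower, whereas 0 were called higher by limma and 116 were higher at an unadjusted p under 0.05. In either direction 385 of 17097 genes had such a p in knockout, fewer than the 1 in 20 that chance gives. Called in both were 41 genes, in the same direction. The wild-type and knockout mice share no array, so the differences of one can be read against the other. The calls are not independent, as both use the same estimate of spread for each gene. Of the 126 lower in wild type, 124 were below 0 in knockout, with a median of -1.82 in the genotype that chose them and -1.03 in knockout. Of the 46 lower in knockout all were below 0 in wild type, with medians of -2.16 in knockout and -2.52 in wild type. Of the 14 higher in wild type 13 were above 0 in knockout, with medians of 0.62 and 0.10. Among all genes 47.9% were above 0 in knockout and 61.9% in wild type. Across all 17097 genes the differences of the 2 genotypes correlated at r = 0.564, a description over genes, which are not independent. The wild-type count was 68 without mouse 1 and 357 without mouse 2, and the knockout count was 8 without mouse 1 and 4 without mouse 2, each with 1 mouse left in that genotype whose spread was taken from the other groups.

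For the leading genes the size in each genotype was as follows. Csn3 was lower by -5.34 ± 0.19 in wild type and -4.85 ± 0.19 in knockout, and Trf by -4.67 ± 0.22 and -4.63 ± 0.22. Aldh1a3 was lower by -3.65 ± 0.27 and -3.84 ± 0.27, and Ltf by -3.81 and -4.15. These genes were called in each genotype on its own. Kit was lower by -4.60 ± 0.23 in wild type and -2.70 ± 0.23 in knockout, Cyp1b1 by -5.81 ± 0.30 and -3.42 ± 0.30, and Dclk1 by -5.02 ± 0.27 and -1.98 ± 0.27. For these 3 genes the non-clonogenic luminal arrays lay at 4.41 to 5.31 in both genotypes, and the ductal arrays of both knockout mice were the lower ones. The difference between genotypes did not pass for Kit (1.89 ± 0.33, adjusted p = 0.400), Cyp1b1 (2.39 ± 0.42, adjusted p = 0.400) or Dclk1 (3.04 ± 0.38, adjusted p = 0.0534). Elf5 was called in wild type (-3.36) and not in knockout (-1.51, adjusted p = 0.167), and its difference between genotypes was not called either (1.85 ± 0.44, adjusted p = 0.999). Luminal progenitor markers had medians of -1.60 in wild type with 15 of 19 called lower and -1.16 in knockout with 9 of 19. Among all genes 0.737% were called lower in wild type and 0.269% in knockout. Hormone-sensing markers had medians of 0.16 and -0.07, with 0 called by limma and 0 at an unadjusted p under 0.05 in each.

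**Figure D5:**
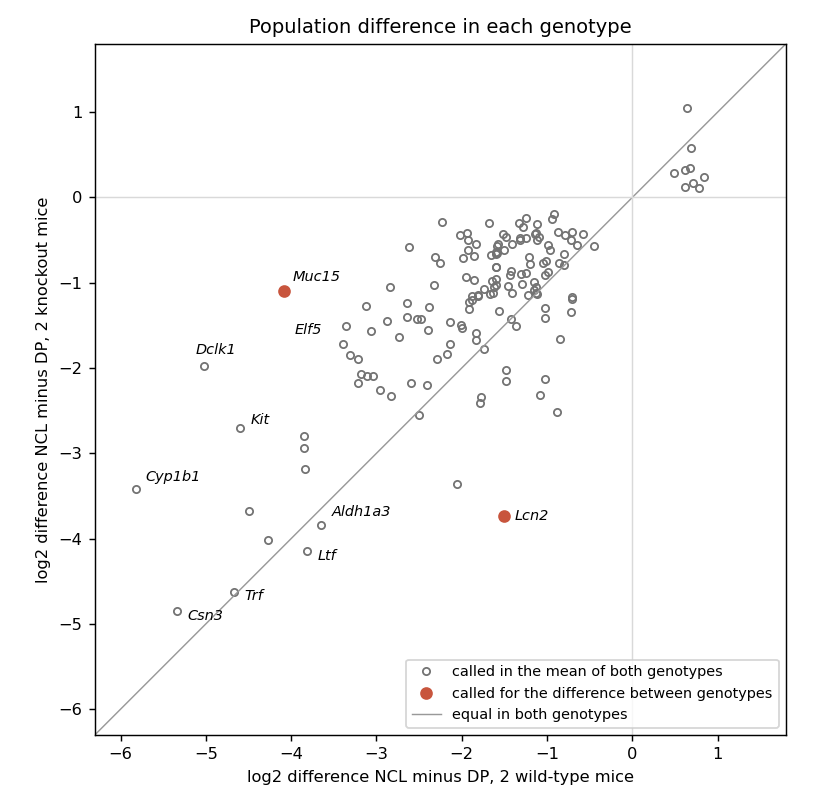
Log2 difference, non-clonogenic luminal minus ductal progenitor, in the 2 wild-type mice (x axis) and the 2 knockout mice (y axis), for the 157 genes called in the mean of both; red points are called for the difference between genotypes and the diagonal marks equal values. Muc15 lies above the diagonal at -4.08 and -1.10, and Lcn2 below it at -1.50 and -3.73.

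Of all genes, 2 were called for a population difference that differed between genotypes (0.0117%), in opposite directions. Muc15, a membrane mucin, read 4.35, 4.37, 4.25 and 4.35 in non-clonogenic luminal cells, under the lower quartile in all 4 mice. In ductal progenitors it read 8.76 and 8.13 in wild type and 5.28 and 5.50 in knockout, and in alveolar progenitors 9.82, 10.30, 9.35 and 9.60. The genotypes thus stood apart in the ductal arrays, and the non-clonogenic luminal arrays were at the floor in all mice. Its population difference was -4.08 ± 0.21 in wild type and -1.10 ± 0.21 in knockout, apart by 2.99 ± 0.30 (adjusted p = 0.0149). Lcn2, a lipocalin that binds bacterial iron carriers, read 10.33 and 10.54 in wild-type and 8.07 and 7.87 in knockout non-clonogenic luminal cells. Its ductal arrays read 12.20, 11.67, 11.61 and 11.80, so for Lcn2 the genotypes stood apart in the non-clonogenic luminal arrays instead. The population difference was -1.50 ± 0.16 in wild type and -3.73 ± 0.16 in knockout, apart by -2.23 ± 0.23 (adjusted p = 0.0149). Both calls were lost without the trend on expression (adjusted p = 0.0502), and without knockout mouse 1 (adjusted p = 1 for both) or knockout mouse 2 (adjusted p = 1 for Lcn2 and 0.967 for Muc15). They were kept without either wild-type mouse. Leaving out any 1 of the 4 knockout arrays, or the non-clonogenic luminal array of wild-type mouse 2, ended both calls (adjusted p from 0.0577 to 0.161), and the non-clonogenic luminal array of wild-type mouse 1 ended that of Muc15 (adjusted p = 0.0965). At an unadjusted p under 0.05 the test counted 565 of 17097 genes, fewer than the 1 in 20 that chance gives.

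Ductal progenitors can be placed against the alveolar progenitors of the same mouse by the signal above non-clonogenic luminal cells, on a linear scale. Over the 15 largest falls, which were chosen for their non-clonogenic luminal and ductal values, the ductal signal came to a median of 45.7% of the alveolar signal in wild-type mouse 1 and 25.8% in wild-type mouse 2. In knockout mice 1 and 2 the medians were 11.1% and 17.6%. By gene the mean of the 4 mice ran from 10.2% ± 2.9 (SD) for Btn1a1 to 49.4% ± 27.8 for Wfdc18. Csn3 came to 49.4%, 52.1%, 30.7% and 38.2%, and Ltf to 35.9%, 31.3%, 36.6% and 43.3%. Kit came to 36.1%, 23.8%, 4.70% and 9.37%. The spread between mice was 14.3% (SD) for Kit and 4.95% for Ltf. No test was made of these shares. Of the 15 genes 7, namely Trf, Cyp1b1, Igfbp5, Fabp5, Dclk1, Rhoj and Wnt5b, averaged at least as high in myoepithelial cells as in ductal progenitors. Cyp1b1 averaged 11.40 against 9.66, Rhoj 11.74 against 9.52 and Trf 11.44 against 11.24, whereas Kit averaged 4.51 in myoepithelial cells and Csn3 7.38.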

How the data were processed

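RNA of sorted mammary cells from 4 mice was measured on 16 arrays. The authors deposited log2 expression values, 1 per probe set and array. RMA and limma are named in the submitters' processing notes, with neither role nor version, and the sources used here give no other step. Of 45141 probe sets, 28898 carried 1 gene symbol, 551 several, 15588 none and 104 were controls. The brightest probe set by mean over all arrays stood for each of 17097 genes, 7180 of which had more than 1.

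One limma fit (version 3.58.1, R 4.3.3, statmod 1.5.0) covered all 16 arrays, with the mouse as a fixed block and population within genotype, eBayes with a trend, 6 residual and 4.25 prior degrees of freedom, and Benjamini-Hochberg adjustment. The mouse pairs the populations because each mouse gave both. Their deviations from the group means correlated at 0.563 in wild type and 0.577 in knockout. The script was tested on simulated data. With the mouse as a block, the mean level of each mouse is removed. With 2 mice per genotype, p-values measure how population differences vary between mice of a genotype, pooled over all 4 populations. The number of arrays limits precision.

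Named are the 15 largest falls and up to 15 largest rises among called genes whose arrays did not overlap and whose mice agreed in sign, genes called between genotypes, and members of gene lists. Members and lists were chosen with earlier results of these data known. The genes Ror2, Col8a2, Tubg2 and Gpatch1 were called higher with overlapping arrays.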

Additional observations from a re-analysis of the deposited data

Results flagged for a closer look

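The population difference differed between genotypes for Muc15, by 2.99 log2 units (knockout minus wild type), and for Lcn2, by -2.23, each by the test of that difference. Another 4 results were singled out because 1 mouse lay far from the other 3, measured as its gap to the nearest mouse over the whole range. Col1a1 had a gap of 0.927 of its range, with -1.78 in wild-type mouse 1 beside -0.63, -0.69 and -0.72. Atp6v1b1 had 0.919, with -1.30 in wild-type mouse 2 beside -2.26, -2.34 and -2.33. The median of the secreted defence list had 0.947, with 0.07 in wild-type mouse 1 beside -0.16, -0.18 and -0.18. The median of the progesterone and RANKL list had 0.897, with -0.06 in knockout mouse 2 beside -0.17, -0.19 and -0.17. Of 87 results looked at in this way 4 were singled out, and chance gives about 1 in 20.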

How the results depend on the processing

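Of 51 named genes called in the mean, 0 changed direction in the 20 alternatives that can be matched by gene. Under the filter on dim genes 50 of them were read. The other called genes and the fit of every probe set on its own were not read for direction. Much of this outcome was fixed in advance. All 157 called genes had the same sign in 4 of 4 mice, so leaving out a mouse could not turn them. Changing the block or trend, filtering dim genes or fitting only the 8 arrays leaves a gene's estimate unchanged. The mean count of 157 was 131 with no replicate block and 136 with the mouse as a random block (consensus correlation 0.0383), so removing the block or the pairing within the mouse moved no count by over 1.5 times. Fitting only the 8 arrays of both populations gave 382 called in the mean, 444 in wild type, 93 in knockout and 15 for the difference between genotypes. Array weights gave 71 and the mean of all probe sets 30 in knockout, and every probe set on its own gave 223 in wild type. For the difference between genotypes, eBayes without a trend gave 0 called genes. There 608 genes had an unadjusted p under 0.05, fewer than 1 in 20. The cause of these shifts was not tested. Leaving out a mouse or an array gave 41 to 319 in the mean, 49 to 357 in wild type, 4 to 67 in knockout and 0 to 68 for the difference between genotypes. Of the 51 genes, 24 to 51 kept their call in each alternative, and the 15 largest falls, other than Btn1a1 and Wnt5b, were called in all 20 of the alternatives that can be matched by gene. Signal near the floor limits Kit, Muc15 and Wnt5b, whose non-clonogenic luminal values lay under the lower quartile. It also limits Smc2os, which read near the floor in both populations.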
